A study of Rattus norvegicus with 17 samples.

Results

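Plasma taken after nocturnal hemodialysis (NHD) was compared with plasma taken before it, by its effect on gene expression in cultured heart muscle cells. The comparison used the 12 arrays whose titles name plasma before NHD (6 arrays) or after NHD (6 arrays), out of 17 arrays in the series. Each array read RNA of ventricular myocytes of neonatal Sprague-Dawley rats, in cultures labelled as 5 days old, that received 10% uremic plasma. The other arrays, 3 with control plasma and 2 with phenylephrine, entered the test only through the spread between replicates. Each title calls its array a biological replicate. The labels do not say whether the replicates of a group came from separate cultures or plasma donors. The p-values therefore measure only the spread between these samples, which may be technical. The labels also do not say what a replicate number shares between the groups. Among the before NHD titles, 2 carry a pair of numbers, of which the last was used. No genetic change or further agent is named in the labels for these groups.

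Uremic plasma is the plasma of people whose kidneys have failed, and it carries solutes that healthy kidneys would remove. Nocturnal hemodialysis removes them by long overnight sessions. Ventricular myocytes of newborn rats are near the end of the period in which heart muscle cells divide, and their cultures also hold dividing non-muscle cells. Entry into division needs cyclins and cyclin-dependent kinases, which are held in check by inhibitors such as p21, the product of Cdkn1a and a well known target of p53.

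All 13 defining myocyte markers were measured, and each had a mean level at or above the 96.5th percentile of all probe sets over the 12 arrays, among them the troponins, the myosin heavy and light chains and the ryanodine receptor. Array medians lay between 6.89 and 7.03 on the log2 scale of the deposited values, and how precise each value can be is limited by how many arrays there were. The before NHD arrays were the more scattered: the SD was larger before than after NHD in 81.2% of 14506 genes. In a principal component analysis of the 12 arrays, the first component held 38.4% of the variance. The after NHD arrays lay between 10.33 and 27.89 on it, before replicates 1, 2, 3 and 5 between -75.53 and -29.48, and before replicates 4 and 6 at 11.49 and 31.91, among or beyond the after NHD arrays. On the second component (23.3%), before replicate 4 and after replicate 4 stood together at 52.00 and 50.23, apart from every other array.

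The log2 differences between same-numbered after and before arrays followed the same division. Their SD over probe sets was 0.528, 0.406, 0.438 and 0.641 for numbers 1, 2, 3 and 5, against 0.205 for number 4 and 0.315 for number 6. At least a 2-fold increase was found at 506 to 1487 probe sets for numbers 1, 2, 3 and 5, at 50 for number 4 and at 160 for number 6. Across 14506 genes, which are not independent replicates, the differences of numbers 1, 2, 3 and 5 correlated with each other at Pearson r between 0.599 and 0.737. Those of numbers 4 and 6 correlated with every other number only at -0.0899 to 0.0600. Arrays of 4 numbers therefore shared 1 pattern of difference, and arrays numbered 4 and 6 did not show it as a whole.

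With the group means alone, 116 of 29214 probe sets (0.397%) passed an adjusted p of 0.05, 84 of them higher and 32 lower after NHD. Counted by gene in the same fit, with the brightest probe set standing for each, 55 of 14506 genes (0.379%) rose and 15 (0.103%) fell. Of the 55, 19 belonged to a list of mitosis and cytokinesis genes and 3 to a list of DNA replication genes. All these calls depended on the control plasma and phenylephrine arrays in the fit: with only the 12 before and after NHD arrays, 0 probe sets passed. The count of 116 also depended on single arrays. It was 0 without any one of before replicates 1, 2 and 3 or after replicates 1, 2, 3, 5 and 6, with 4293 to 4916 probe sets at an unadjusted p under 0.05, and 42 without before replicate 5. It was 2648 without before replicate 4, 2690 without before replicate 6 and 641 without after replicate 4. Leaving out a control array gave 33, 38 and 39, and leaving out either phenylephrine array gave 44.

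**Figure D1:**
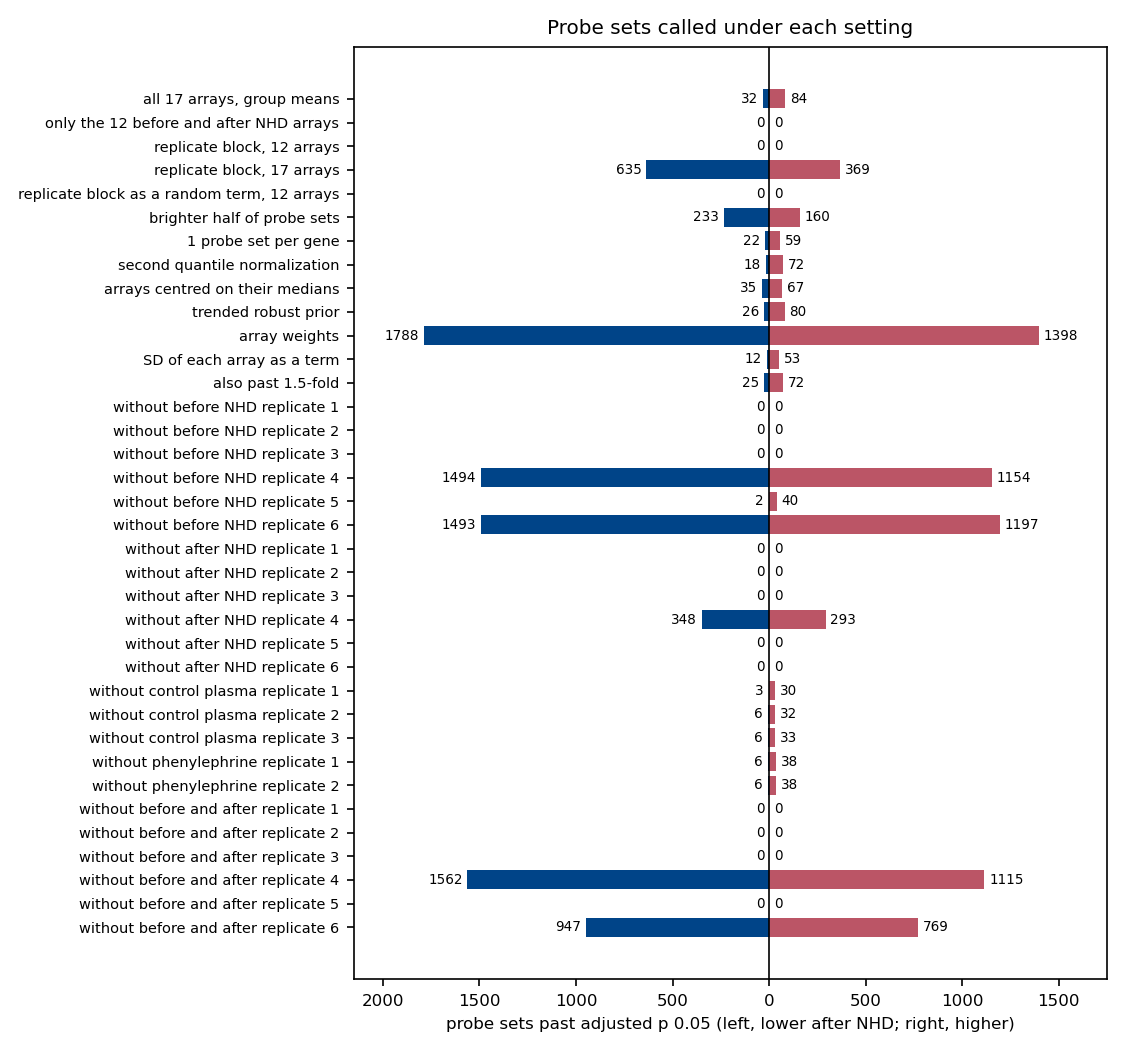
Number of probe sets past an adjusted p of 0.05 (horizontal axis, lower after NHD to the left of 0 and higher to the right) in each fit (vertical axis). The group means of all 17 arrays gave 84 higher and 32 lower, and leaving out before replicate 4 or 6 gave 2648 and 2690 in all.

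The genes that rose most were those of the last stages of the cell cycle. Of the 41 measured genes of the mitosis list, 19 rose and 0 fell in the fit of 17 arrays, and 39 had a positive difference. In a fit of only the 12 before and after NHD arrays, 0 of the 41 passed. The list median was 0.996 log2 units, against -0.01 over all genes. Without before replicates 1, 2 or 3 or after replicates 1, 2, 3, 5 or 6, 0 of the 41 passed, with list medians of 0.87 to 1.03. Without before replicates 4, 5 and 6 the count was 31, 17 and 26, and without after replicate 4 it was 27.

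Top2a, which encodes the DNA topoisomerase that separates sister chromatids, had levels of 5.98, 7.07 and 9.88 (lowest, median and highest of 6) before NHD and 9.77, 10.44 and 10.57 after NHD. Control plasma arrays stood at 5.83 to 6.08. The groups overlapped through a single before array, replicate 4 at 9.88, which was above after replicate 4 at 9.77. Top2a rose by 2.88 ± 0.49 log2 units (SE), a 7.38-fold increase (means of 6 and 6 arrays). Here and below, SEs and 95% intervals come from the fit of 17 arrays, which pools the spread of all 4 groups. They do not measure the spread of the before and after arrays alone. For Top2a the SD was 1.47 before and 0.29 after NHD. Its adjusted p was 0.0289 in the fit of 17 arrays and 0.127 in the 12 uremic plasma arrays alone. The difference was 4.60, 3.73, 2.90, -0.11, 4.16 and 2.02 for numbers 1 to 6.

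Ccna2, which encodes cyclin A2, ran from 6.23 to 9.66 before NHD, with a median of 7.43, and from 9.69 to 10.41 after NHD, with a median of 10.32. Every after array was above every before array; the highest before and the lowest after array were both numbered 4, at 9.66 and 9.69. Ccna2 rose by 2.57 ± 0.45 (adjusted p = 0.0289). Its kinase partner Cdk1 had a median of 7.59 before NHD (5.80 to 8.23) and 9.13 after NHD (8.21 to 9.25), and rose by 1.76 ± 0.34 (adjusted p = 0.0400). The overlap of the Cdk1 levels again came from the arrays numbered 4, at 8.23 before and 8.21 after NHD. The B cyclins Ccnb1 and Ccnb2, which drive entry into mitosis with Cdk1, rose by 1.94 ± 0.33 and 2.31 ± 0.33.

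Genes that build and cut the mitotic spindle followed. Kif20a, a kinesin of the central spindle, rose by 2.75 ± 0.43 from 5.72, 6.68 and 9.04 before NHD to 8.88, 9.90 and 10.29 after NHD. Its levels overlapped only through the arrays numbered 4. Kif23, the motor of the centralspindlin complex, rose by 1.82 ± 0.29 and did not overlap between the groups, and Kif2c, which shortens microtubules at the centromere, rose by 1.57 ± 0.24. Ect2, the exchange factor that sets the cleavage furrow, rose by 2.30 ± 0.36, with before arrays at 7.02 to 10.17 and every after array at 10.25 or above. Plk1, a kinase of mitotic entry and exit, rose by 2.22 ± 0.36, and Nusap1, which bundles spindle microtubules, by 1.91 ± 0.29. Pbk (2.28 ± 0.39), Cdca3 (1.70 ± 0.28), Nek2, a centrosome kinase (2.83-fold), and Cenpt, part of the inner kinetochore (1.60 ± 0.31), also rose. Adjusted p-values of these genes were between 0.0289 and 0.0400.

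**Figure D2:**
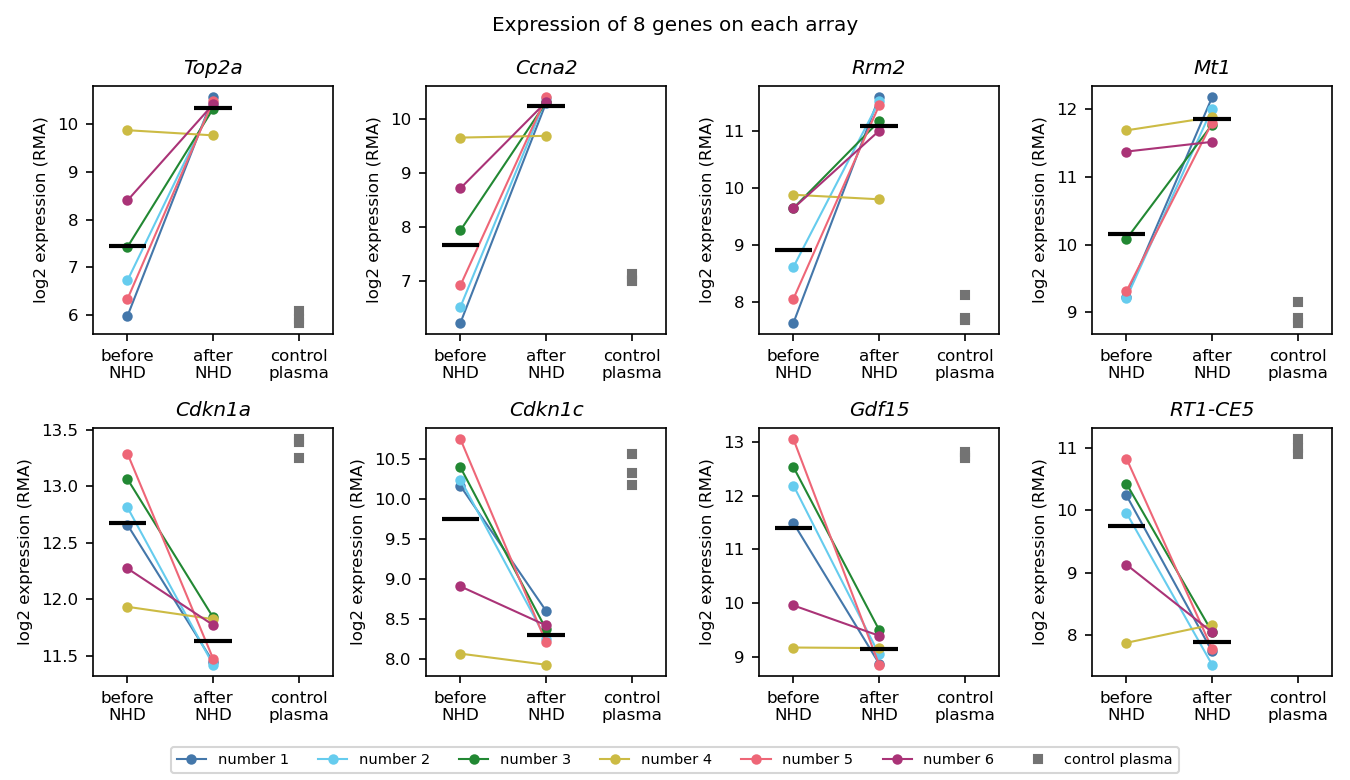
Log2 expression (vertical axes, a separate scale for each gene) of 8 genes on each before NHD, after NHD and control plasma array. Lines join before and after arrays of the same replicate number, black bars are group means, and number 4 runs nearly flat in every panel (-0.11 for Top2a, -0.01 for Gdf15).

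The promoters of 4 of these genes are shown because the members moved together and their upstream sequences share a pair of short elements. CCAAT boxes, bound by NF-Y, and the element TTTGAA, known as the cell cycle genes homology region, are textbook features of promoters active late in the cell cycle. The 250 bases before the annotated start are given 5′ to 3′ on the gene's strand, from RefSeq (GRCr8), with matches to CCAAT or its complement ATTGG and to TTTGAA or its complement TTCAAA in capitals. The 4 were picked after their values and sequences were seen.
Top2a (chr10:84473094-84473343, minus strand): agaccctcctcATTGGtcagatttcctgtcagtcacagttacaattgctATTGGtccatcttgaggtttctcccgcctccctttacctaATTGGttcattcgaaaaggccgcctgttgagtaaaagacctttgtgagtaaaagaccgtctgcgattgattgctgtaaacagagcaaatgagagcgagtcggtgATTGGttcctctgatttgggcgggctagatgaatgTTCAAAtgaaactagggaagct
Ect2 (chr2:111966627-111966876, minus strand): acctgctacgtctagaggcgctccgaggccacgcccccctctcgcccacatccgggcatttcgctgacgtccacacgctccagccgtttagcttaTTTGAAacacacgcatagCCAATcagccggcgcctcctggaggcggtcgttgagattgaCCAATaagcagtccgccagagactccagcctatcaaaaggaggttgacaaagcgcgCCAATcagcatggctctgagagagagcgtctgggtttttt
Cdk1 (chr20:19265043-19265292, plus strand): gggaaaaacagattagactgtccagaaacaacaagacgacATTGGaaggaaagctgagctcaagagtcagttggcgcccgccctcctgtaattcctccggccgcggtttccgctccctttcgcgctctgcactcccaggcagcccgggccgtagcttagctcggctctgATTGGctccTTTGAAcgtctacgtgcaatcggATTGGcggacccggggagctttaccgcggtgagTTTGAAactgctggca
Ccnb2 (chr8:79981659-79981908, minus strand): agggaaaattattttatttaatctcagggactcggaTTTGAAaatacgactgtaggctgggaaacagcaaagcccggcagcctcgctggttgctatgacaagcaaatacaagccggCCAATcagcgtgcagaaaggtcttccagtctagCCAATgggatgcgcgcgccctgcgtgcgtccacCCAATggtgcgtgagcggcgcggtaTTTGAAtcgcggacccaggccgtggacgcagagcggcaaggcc

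A search of both strands for these letters found CCAAT in the same window of 36.2% of 11951 array genes with a promoter entry, and TTTGAA in 14.3%. Of the 55 genes that rose, 45 had an entry, and 32 of them (71.1%) held CCAAT, 19 (42.2%) TTTGAA and 16 (35.6%) both, against 5.5% with both among all promoters. Of the 15 genes that fell, 11 had an entry, and 4 (36.4%) held CCAAT, 2 (18.2%) TTTGAA and 1 (9.1%) both. In the mitosis list, 15 of 33 genes with an entry (45.5%) held both. Among the promoters printed, Top2a held 4 CCAAT matches and 1 TTTGAA match, Ect2 3 and 1, Cdk1 3 and 2, and Ccnb2 3 and 2. A match describes the letters and does not show a site in use.

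DNA replication genes changed in smaller number. Of 42 measured, 3 rose and 0 fell, and the median of all 42 was 0.33. Rrm2, the regulated subunit of ribonucleotide reductase, which makes deoxynucleotides, had 7.64, 9.14 and 9.89 before NHD and 9.81, 11.32 and 11.60 after NHD. After replicate 4, at 9.81, was the only after array inside the before range, and Rrm2 rose by 2.18 ± 0.38 (adjusted p = 0.0289). Mcm6, a subunit of the replicative helicase, ran from 6.77 to 8.17 before and from 8.29 to 8.75 after NHD with no overlap, and rose by 1.10 ± 0.22 (adjusted p = 0.0441). E2f8, a repressor of the E2F family, rose by 0.71 ± 0.14. Mcm5, of the same helicase, had a difference of 1.54 ± 0.35 that did not pass (adjusted p = 0.0654).

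Inhibitors of the cycle moved both ways. Of 20 measured genes in a list of inhibitors, D cyclins and pocket proteins, 1 rose and 1 fell, and the median of the 20 was -0.06. Cdkn1a, which encodes p21, had levels of 11.93, 12.74 and 13.29 before NHD and 11.42, 11.62 and 11.84 after NHD, with control plasma at 13.25 to 13.42. No after array reached any before array. Cdkn1a fell by 1.04 on the log2 scale (SE 0.18), 2.06-fold (adjusted p = 0.0289), with same-numbered differences of -1.21, -1.39, -1.22, -0.11, -1.82 and -0.50. Cdkn2c, the p18 inhibitor of Cdk4 and Cdk6, rose by 1.29 ± 0.23 (adjusted p = 0.0333), opposite to Cdkn1a. Cdkn1c, the p57 inhibitor, had a difference of -1.46 ± 0.35 that did not pass (adjusted p = 0.0678), with before arrays from 8.07 to 10.75 and after arrays from 7.93 to 8.60.

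In the list of p53 targets and apoptosis genes, 0 of 28 rose and 1 fell, with a median of -0.33. The differences were positive for 8 of the 28. Zmat3, an RNA-binding target of p53, ran from 8.04 to 8.52 before and from 7.43 to 8.06 after NHD, overlapping at its edges, and fell by 0.59 on the log2 scale (SE 0.11; adjusted p = 0.0400). Differences that did not pass were -1.09 ± 0.23 for Tp53inp1 (adjusted p = 0.0530), -0.70 ± 0.16 for Phlda3 (0.0635) and -0.39 ± 0.09 for the anti-apoptotic Bcl2l1 (0.0618). Ccng1, of the list of inhibitors above, differed by -0.44 ± 0.10 (0.0682) and did not pass either. Bcl2l1 was the only one of these 4 whose groups did not overlap, at 9.98 to 10.32 before and 9.53 to 9.90 after NHD.

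The other genes that fell were of mixed kinds. RT1-CE5 belongs to the class I histocompatibility genes, and near-identical relatives could add to its signal. It had 7.87, 10.10 and 10.84 before NHD and 7.51, 7.91 and 8.16 after NHD. Before replicate 4, at 7.87, lay within the after range. RT1-CE5 fell by 1.87 on the log2 scale (SE 0.36), 3.65-fold (adjusted p = 0.0400), and its difference was 0.29 at number 4 and between -3.06 and -1.09 at the other numbers. Lxn, an inhibitor of carboxypeptidases, fell by 1.24 (SE 0.25), and Jam3, an adhesion molecule of cell junctions, by 1.08 (SE 0.22). Lif, a cytokine of the interleukin 6 family that acts on myocytes, fell by 0.93 (SE 0.18; adjusted p = 0.0400), from 7.54 to 8.67 before to 6.99 to 7.55 after NHD. Pmm1, Hapln3, Plcl1, Gle1, Tbcel, Wdr81, Adgrv1, Cnot10 and Gmeb1 completed the 15, with log2 differences from -1.04 to -0.42. Among them Cnot10, a subunit of the CCR4-NOT deadenylase, had no overlap, at 9.14 to 9.50 before and 8.78 to 9.04 after NHD. Of the 15, 12 were lower after NHD at all 6 numbers, among 825 of 14506 genes (5.69%) that were so, and 6 had no overlap, among 58 (0.400%).

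**Figure D3:**
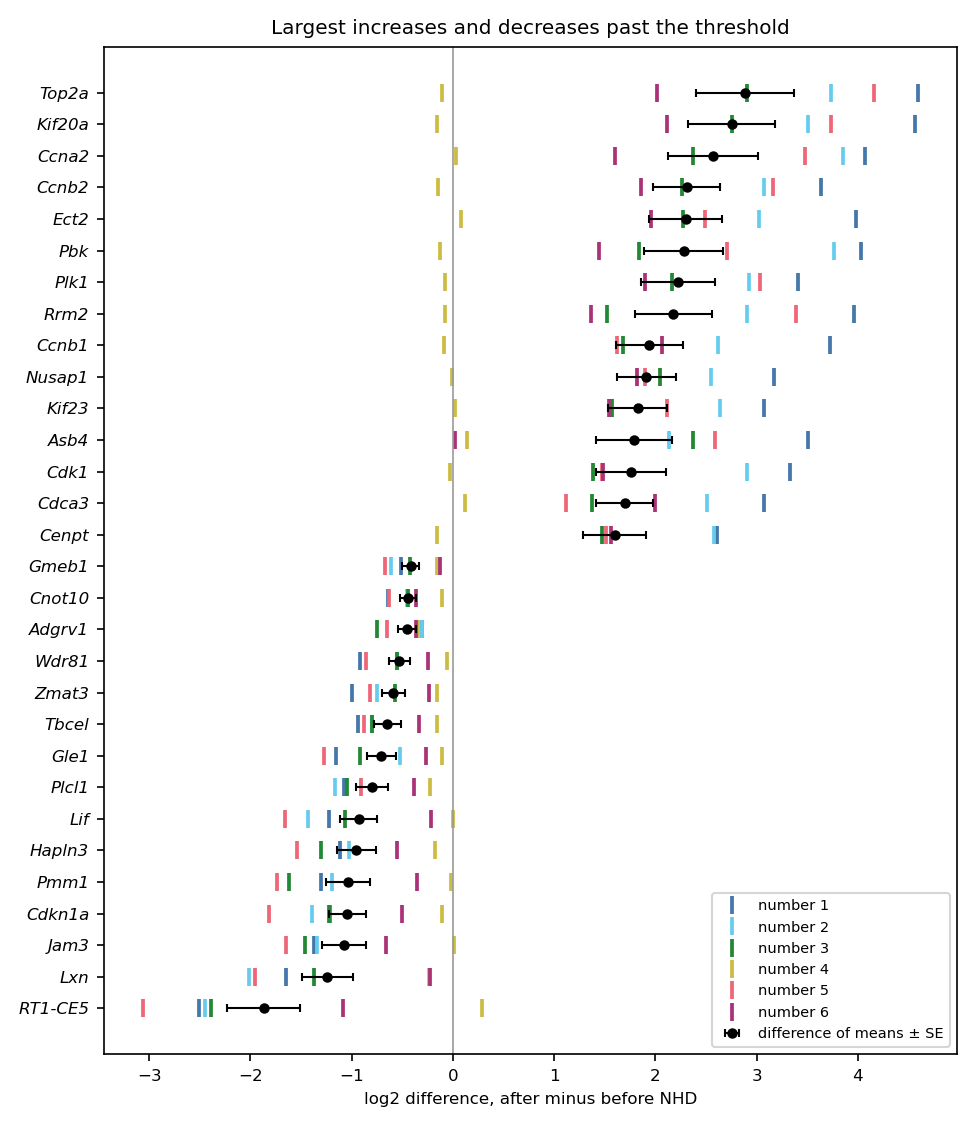
Log2 differences, after minus before NHD (horizontal axis), of the 15 largest increases and the 15 decreases past the threshold (vertical axis). Black points are differences of group means with the SE of the fit and coloured ticks are the differences of same-numbered arrays. Ticks of number 4 run from -0.34 for Adgrv1, whose difference of means was -0.45, to 0.29 for RT1-CE5.

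Of the 55 genes that rose, 17 had every after array above every before array, among 39 of 14506 genes (0.269%) with such a separation. Higher values after NHD at all 6 numbers were found for 21 of the 55, among 494 genes (3.41%). The other 34 were higher at 5 numbers, and in each of the 34 the exception was number 4. Outside the cell cycle, Asb4, a subunit of a ubiquitin ligase, rose by 1.79 ± 0.38 (adjusted p = 0.0498), with overlapping ranges of 6.03 to 8.29 before and 7.26 to 9.53 after NHD. Fads2, a fatty acid desaturase, rose by 0.70 ± 0.14 (adjusted p = 0.0427).

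Contractile and hypertrophy genes did not pass. Nppa, the atrial natriuretic peptide gene and a marker of hypertrophy, ran from 13.66 to 13.85 before and from 13.81 to 13.88 after NHD, a difference of 0.07 with a 95% interval of -0.05 to 0.19. For Nppb, the brain natriuretic peptide gene, the difference was 0.29 (-0.11 to 0.68), for the slow myosin heavy chain Myh7 0.08 (-0.08 to 0.23), for the fast chain Myh6 0.17 (-0.07 to 0.42) and for the calcium pump Atp2a2 0.11 (-0.17 to 0.39). Skeletal actin, Acta1, had a difference of -0.42 (-0.82 to -0.02; adjusted p = 0.242), with before arrays at 12.13 to 13.57 and after arrays at 11.92 to 12.64. Leaving out single arrays or numbers moved 5 of these 6 differences by over 1.5 times: Nppa from 0.04 (without number 1) to 0.09 (without number 4), Nppb from 0.14 (without number 6) to 0.42 (without before replicate 4), and Acta1 from -0.56 (without before replicate 4) to -0.27 (without before replicate 5). Without after replicate 4 and before replicate 4 respectively, Myh7 was at 0.04 and 0.13 and Atp2a2 at 0.19 and 0.02. Levels of Nppa are near the top of the scale, where array values are compressed. Of 21 hypertrophy genes, 21 sarcomere genes and 29 genes of calcium handling, channels and junctions, 0 rose and 0 fell, and the medians were 0.07, 0.17 and 0.10. The largest of their named differences were 0.94 ± 0.33 for Csrp3, a Z-disc protein (adjusted p = 0.140), and 0.62 ± 0.24 for the transcription factor Gata4 (0.182). Outside the naming rule, Trdn (-0.82, adjusted p = 0.149) and Gja1 (0.78, 0.161) differed by more than Gata4. They were added after their values were seen.

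Lists of energy metabolism had small positive medians, and Fads2, of the list of fatty acid synthesis and desaturation, was their only called gene. Of 35 respiratory chain genes 33 had positive differences, with a median of 0.12, and the medians were 0.17 for 24 genes of the TCA cycle, 0.11 for 32 of fatty acid oxidation and 0.26 for 31 of glycolysis and hypoxia. At number 4 these medians were -0.02, -0.01, 0.08 and -0.06, and at number 6 they were -0.18, -0.15, -0.44 and -0.22. At numbers 1, 2, 3 and 5 they were above 0, except for fatty acid oxidation at number 2 (-0.01). Slc16a3, the lactate exporter, had 9.42, 10.18 and 10.41 before NHD and 10.23, 11.32 and 11.45 after NHD, a difference of 1.06 ± 0.23 that did not pass (adjusted p = 0.0606). Dlat, of the pyruvate dehydrogenase complex, differed by 0.65 ± 0.20 (0.106) and Uqcrc2, of complex III, by 0.56 ± 0.18 (0.111).

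**Figure D4:**
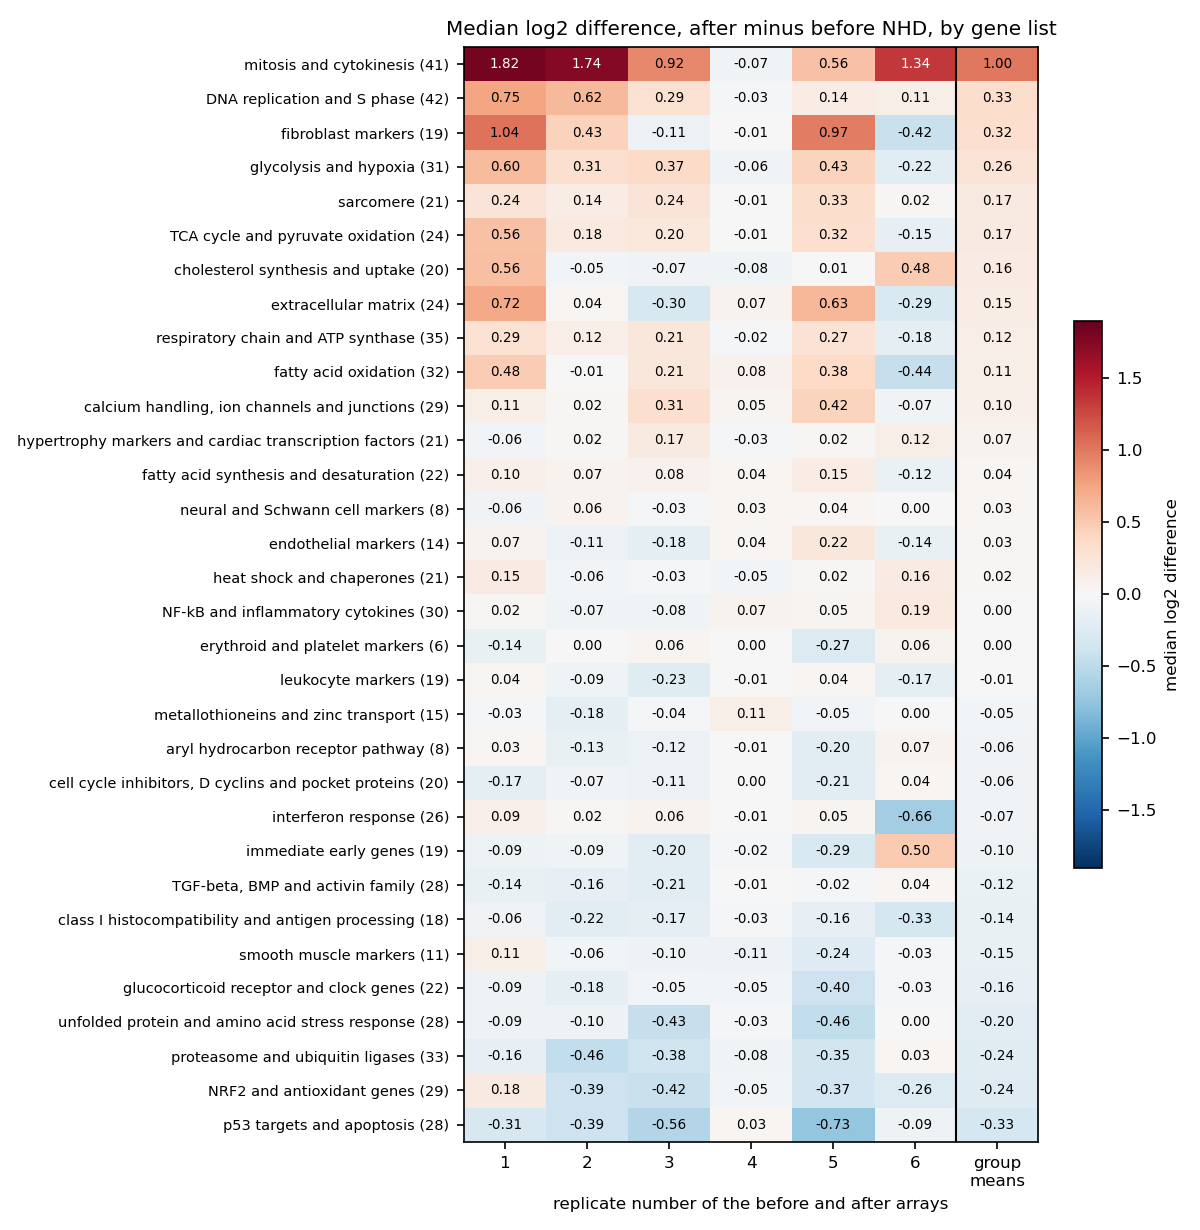
Median log2 difference, after minus before NHD, of each gene list (rows, measured genes in brackets) for each replicate number (columns 1 to 6) and for the group means (last column), with red for higher and blue for lower after NHD. The mitosis list had medians of 1.82, 1.74, 0.92, -0.07, 0.56 and 1.34 at numbers 1 to 6, and at number 4 the median of every list lay between -0.11 and 0.11.

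Stress, immune and degradation lists mostly had negative medians. The proteasome list had 30 of 33 differences below 0 with a median of -0.24 and 0 called, and its medians ran from -0.46 at number 2 to 0.03 at number 6. The NRF2 and antioxidant list had a median of -0.24 over 29 genes, with 0 called. Srxn1, the sulfiredoxin that repairs oxidised peroxiredoxins, had the widest named difference of that list, -1.42 ± 0.39 (adjusted p = 0.0857). The unfolded protein list (28 genes) had a median of -0.20, the class I list (18) -0.14 with RT1-CE5 called, the interferon list (26) -0.07 and the NF-kB list (30) 0.00 with Lif called. In the p53 list the medians at numbers 1 to 6 were -0.31, -0.39, -0.56, 0.03, -0.73 and -0.09. Those of the mitosis list were 1.82, 1.74, 0.92, -0.07, 0.56 and 1.34, and a link between the lists was not tested. Nfkb2 and Nfkbia, both targets of NF-kB, had differences of -1.42 ± 0.36 and -1.36 ± 0.35 (adjusted p = 0.0757 and 0.0766), positive at numbers 4 and 6 and between -2.95 and -1.83 at the others. Tap1, the peptide transporter for class I molecules, differed by -1.08 ± 0.23 (0.0522).

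The widest difference of any secreted factor named was in Gdf15, a stress-induced member of the TGF-beta family. Its levels were 9.17, 11.84 and 13.05 before NHD and 8.85, 9.10 and 9.50 after NHD, with control plasma at 12.70 to 12.82. Before replicate 4, at 9.17, lay within the after range and before replicate 6 lay above it by less than the other before arrays. The difference of -2.26 ± 0.50 did not pass (adjusted p = 0.0611). Mt1, a zinc-binding metallothionein, went the other way, with 9.21, 9.70 and 11.69 before NHD and 11.52, 11.84 and 12.17 after NHD (1.71 ± 0.38; adjusted p = 0.0606). Its differences were 0.19 and 0.14 at numbers 4 and 6 and 1.69 to 2.94 at the others. Bmp7, a bone morphogenetic protein, differed by 1.31 ± 0.31 (0.0701), and Fst, an inhibitor of activins, by -1.06 ± 0.36 (0.132).

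Among genes that differed the same way at all 6 numbers, several with wide differences did not pass from the group means. Gnptg, a subunit of the enzyme that tags lysosomal proteins, had 8.47, 10.71 and 11.38 before NHD and 8.46, 8.55 and 8.78 after NHD (-1.61 ± 0.40; adjusted p = 0.0718). Before replicates 4 and 6 lay close to the after arrays, with differences of -0.01 and -0.06. Abcb1b, a drug efflux pump, differed by -1.45 ± 0.46 (0.114), with control plasma at 11.77 to 11.91 and after arrays at 7.45 to 9.41. Genes best known from germ cells were among them: Eqtn, a sperm acrosome protein, at -1.44 ± 0.33 (0.0654), and Zp2, of the egg coat, at -1.29 ± 0.34 (0.0821). On the higher side Parpbp, a regulator of homologous recombination, rose by 1.35 ± 0.24 (0.0289) with no overlap, and Mmachc, which handles vitamin B12, differed by 1.43 ± 0.52 (0.152).

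Genes of sterol export, hormone response and early response gave no call. Abca1, the cholesterol exporter, had before arrays at 7.61 to 9.84 and after arrays at 6.28 to 8.47 (-1.21 ± 0.38; adjusted p = 0.111), and its difference was 0.52 at number 4 and below 0 at the others. Zbtb16, a glucocorticoid-induced repressor, had no overlap, at 9.29 to 10.43 before and 8.91 to 9.26 after NHD, and its difference of -0.72 ± 0.17 did not pass (0.0712). Nr4a2, an early response nuclear receptor, differed by -1.09 ± 0.26 (0.0701). Of 8 genes of the aryl hydrocarbon receptor pathway, which several uremic solutes are known to activate, 0 rose and 0 fell. Their median was -0.06, with 3 differences positive and 5 negative. Nqo1, a target of the pathway that is in the NRF2 list as well, had a difference of -0.93 (95% interval -2.08 to 0.22). At number 1 Nqo1 was higher after NHD, by 0.46. Its difference was -1.42 without before replicate 4 and -0.59 without after replicate 4. The receptor itself, Ahr, differed by -0.53 (-0.97 to -0.10; adjusted p = 0.175), and by -0.34 without number 5.

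Markers of other cell types gave 1 called gene. S100a4, a marker of fibroblasts that other cells also express, ran from 8.11 to 9.51 before and from 9.53 to 10.20 after NHD with no overlap, and rose by 1.03 ± 0.20 (adjusted p = 0.0400). It was 1 of 19 measured fibroblast markers, whose median difference was 0.32 and whose mean level per array was 6.94 to 8.92 before, 7.04 to 8.77 after NHD and 7.71 to 7.83 with control plasma. That mean level was low in both groups at numbers 2 and 4, with 6.94 and 7.31, and 7.01 and 7.04 (before and after). It was high in both at numbers 3 and 6, with 8.88 and 8.77, and 8.92 and 8.55. At numbers 1 and 5 it was higher after NHD, with 7.37 and 8.35, and 7.10 and 8.05. Postn, a matrix protein of fibroblasts, was chosen here after its values were seen. It had 10.96 and 10.74 at number 3, 10.90 and 10.45 at number 6, 7.72 and 7.67 at number 4, and 7.38 and 7.87 at number 2. At numbers 1 and 5 Postn was higher after NHD, with 7.93 and 9.97, and 7.01 and 9.63. Smooth muscle (11 genes), endothelial (14), leukocyte (19), neural (8) and erythroid (6) markers had 0 called genes and medians of -0.15, 0.03, -0.01, 0.03 and 0.00. Fewer cells of a type and less RNA per cell cannot be told apart in these cultures, and the part of the fibroblast markers in the cell cycle result was not tested. The mitosis and fibroblast medians were 1.82 and 1.04 at number 1, 1.74 and 0.43 at number 2, 0.92 and -0.11 at number 3, -0.07 and -0.01 at number 4, 0.56 and 0.97 at number 5, and 1.34 and -0.42 at number 6.

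**Figure D5:**
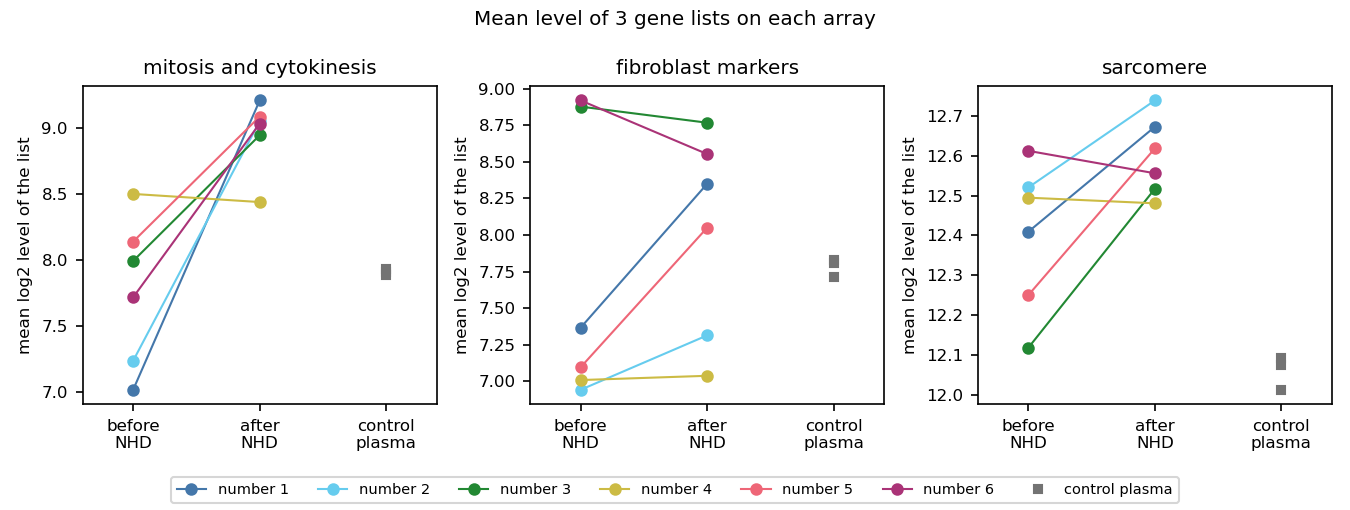
Mean log2 level (vertical axis) of the mitosis, fibroblast and sarcomere lists on each before NHD, after NHD and control plasma array, with lines joining arrays of the same replicate number. The mitosis list ran from 7.02 to 8.50 before and from 8.44 to 9.21 after NHD, and in the fibroblast panel numbers 3 and 6 were high in both groups and numbers 2 and 4 low in both.

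The comparison was then repeated with the replicate number as a term. In a fit of all 17 arrays, with the number as a block for the uremic plasma arrays, 1004 probe sets passed, 369 higher and 635 lower after NHD. At gene level 242 of 14506 (1.67%) were higher and 380 (2.62%) lower, and all 70 genes called from the group means were called here as well. The share of lower calls thus exceeded that of higher calls, opposite to the fit without the term. In a fit of the 12 uremic plasma arrays alone, 0 probe sets passed with the block, with 6080 at an unadjusted p under 0.05 and a smallest adjusted p of 0.159, and 0 passed without it, with 4614. With the number as a random term, which gave a correlation of 0.255 between same-numbered arrays, 0 passed and 6360 were at an unadjusted p under 0.05. Without the arrays numbered 4 the blocked fit of the remaining uremic arrays called 271 probe sets, and without those numbered 6 it called 0; both settings were added once the data had been seen.

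With the block in the fit of 17 arrays, 24 of the 41 mitosis genes were higher and 0 lower, and 9 of 42 DNA replication genes were higher and 1 lower. These and the calls that follow belong to that fit only. With the block in the 12 uremic plasma arrays alone, 0 probe sets passed (smallest adjusted p 0.159). The inhibitor list had 2 higher and 4 lower, Cdkn1c being lower among them (adjusted p = 0.0412). The p53 list had 1 higher and 9 lower of 28, with Tp53inp1, Phlda3 and Bcl2l1 lower (0.0437, 0.0446 and 0.0455). The higher one was the death receptor Tnfrsf10b, named here after its values were seen, with a difference of 0.94 (0.0446). Gdf15 was lower and Mt1, Mt2A and Bmp7 higher (adjusted p = 0.0412, 0.0412, 0.0480 and 0.0412), and Srxn1, Prdx5 and Sod1 of the NRF2 list were lower (0.0412 each). Csrp3 and Tnnc1 of the sarcomere list were higher (0.0412 and 0.0485), as were Jph2 and Pkp2, which hold junctions of the membranes and of neighbouring cells (0.0498 and 0.0446). In the lists of hypertrophy, respiratory chain, TCA cycle and fatty acid oxidation genes 0 passed with the block either, and Nppa, Nppb, Myh7 and Myh6 had adjusted p-values of 0.516, 0.209, 0.506 and 0.251. The size of each difference is the same with and without the block, since every number has 1 array in each group.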

How the data were processed

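Biotin-labelled RNA of each of 17 samples was hybridised to its own Affymetrix array. The authors deposited log2 expression values and name RMA in the submitters' processing notes. RMA subtracts background, equalises the arrays' distributions and summarises probes, and so removes a shift common to most genes. Its version is not given in the sources used here. Probe sets with 1 gene symbol numbered 15310, with several 323 and with none 13581; symbols were updated through RefSeq (GRCr8; 15279 held). The probe set with the highest mean stood for its gene.

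The test was limma's lmFit and eBayes (limma 3.58.1, R 4.3.3) on all 17 arrays with 4 group means, 2-sided, with Benjamini-Hochberg adjustment over 29214 probe sets and a threshold of 0.05. Standard errors pool groups of unequal spread. Alternatives used the replicate number as a block or a random term, the uremic arrays only, another scaling, filter, prior or weighting, and each array or number left out. The fit was run on simulated data in which all groups had the same spread at a probe set. Groups differ in spread here, so that run cannot show how the fit performs on these data.

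The samples compared, the 32 gene lists and the tests were chosen with earlier results of these data known. Named genes were the 15 largest increases and decreases past the threshold, the 10 largest each way among genes changed alike at all 6 numbers, the 4 members with the smallest unadjusted p in each list, and Nppa, Nppb, Acta1, Myh7, Myh6, Atp2a2, Cdkn1a, Top2a and Ccna2; provisional symbols were left out. Further probe sets of 9 named genes had the same direction. Promoters were read from a RefSeq table and not tied to the arrays' build.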

Additional observations from a re-analysis of the deposited data

Results flagged for a closer look

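Of 244 sets of 6 values examined (122 genes, before and after NHD), 14 held an array whose gap to its nearest neighbour was too large a part of the whole range by Dixon's 95% limit for 6 samples; chance alone marks about 1 group in 20. In 12 of the 14 the array was after replicate 4. It was the lowest after NHD array for 8 cell cycle genes: Top2a at 9.77, Kif20a at 8.88, Ccna2 at 9.69, Rrm2 at 9.81, Ccnb1 at 9.53, Nusap1 at 9.13, Kif23 at 8.27 and Cdk1 at 8.21. It was also the lowest for Zp2 at 5.45, Ucp2 at 12.13 and Nsdhl at 9.94, and the highest for Eqtn at 7.34. After replicate 6 was high for Gnptg at 8.78, and before replicate 4 was high for Myh7 at 13.20. The genes are not independent, and after replicate 4 differed from before replicate 4 by -0.11 for Top2a, -0.16 for Kif20a and -0.02 for Cdk1.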

How the results depend on the processing

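Each of the 122 genes examined singly kept the direction of its difference in each setting run. The count of probe sets past the threshold, 116 from the group means of 17 arrays, was 0 with only the 12 uremic arrays, 0 with the replicate block in those 12, 1004 with the replicate block in all 17, 0 with the block as a random term, 393 among the brighter probe sets, 3186 with array weights and 65 with each array's SD as a term. Settings chosen after the data were seen, the blocked 12 arrays without number 4 or number 6, gave 271 and 0. With an array or a same-numbered pair left out the count ran from 0 to 2690. It was 81 to 106 after a second quantile normalization, centring on the median, a trended robust prior or refitting with adjustment over 1 probe set per gene only, and 97 past 1.5-fold. Same-numbered arrays deviated together from their group means at numbers 2, 3, 4 and 6 (correlations 0.422, 0.599, 0.571 and 0.251) but not at numbers 1 and 5 (0.099 and -0.025), and 3 of 6 before arrays correlated best with their own number. The labels do not say what a number shares, so a pairing of all 6 was not established. The cause of these changes in count was not tested. The number of arrays limits all values, and signal over background is not given in the values.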
